A study of Mus musculus with 2 samples.

Results

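Hypoxia response genes, led by Hilpda, were followed across the cell classes of RM-1 tumors in a control and an enzalutamide (ENZ) library of single-cell RNA sequencing (scRNA-seq). The 10 genes, of 32285 in the count tables, were Hilpda, Slc2a1, Car9, Bnip3, Ndrg1, Egln3, Adm, Ankrd37, Pdk1 and Hif1a. They were chosen by their levels and co-variation in these same libraries, with Hilpda first because it was lower in ENZ cancer cells, so the values below are a description and carry no test. RM-1 is a mouse prostate cancer (PCa) line with intrinsic resistance to ENZ, an androgen receptor antagonist, and it was grown orthotopically in C57BL/6 mice, so that all cancer cells came from 1 line. The labels give the genotype of both samples as WT and the treatment as vehicle for the control and enzalutamide for ENZ. The age of this pair of mice is not given in the sources used here. The paper gives a dose and schedule for its orthotopic RM-1 mice, but does not say whether this pair followed them. Each condition was 1 mouse and 1 library, and immune cells were enriched during sorting, so the numbers of cells per class are not compared.

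The control library held 170830346 unique molecular identifiers (UMIs) and the ENZ library 162030149. Cancer cells were barcodes with at least 8000 UMIs, at least 200 genes, at most 20% mitochondrial UMIs, at most 1 UMI of the leukocyte gene Ptprc and at least 5 UMIs in sum of Cacna2d1, Rbfox2, Kif21a and Rhox5. This gave 3807 control and 4290 ENZ cancer cells, with medians of 21957 and 22694 UMIs. Immune cells, of at least 1000 UMIs, were gated by markers as macrophages (1181 control and 593 ENZ cells), monocytes (655 and 1079), neutrophils (926 and 339), T cells (481 and 646), NK cells (228 and 103) and dendritic cells (172 and 94). B cells (26 and 15) were too few to use, and 4773 control and 3108 ENZ cells of at least 1000 UMIs fell in no gate. The 2 libraries shared 43 barcodes of at least 500 UMIs, of which 8 were cancer cells in both.

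The label of the cancer cells was checked on genes that their gate did not use. Krt8 stood at 437 counts per 1000000 UMIs (CPM) in control and 508 CPM in ENZ cancer cells and Krt18 at 357 and 358 CPM. Epcam was near 3 CPM and Cdh1 at 0.7 CPM in both, so of the epithelial markers only the keratins marked these cells. The collagen and stromal genes Col1a1, Col1a2, Col3a1, Dcn and Pdgfrb summed to 1009 and 975 CPM in cancer cells. Of the marker lists, Apoe was the most abundant gene in macrophages (7603 and 5205 CPM) and S100a9 in neutrophils (41695 and 37365 CPM), while in monocytes it was Plac8 in control (3947 CPM) and Chil3 in ENZ (3152 CPM). Macrophage markers summed to 144 and 94.7 CPM in cancer cells and neutrophil markers to 127 and 85.1 CPM. A CPM here sums the UMIs of a gene over all cells of a class and scales them to the total UMIs of that class. Intervals in parentheses are 95% intervals for counting error only and leave out the spread between mice, and fewer cells with a transcript and less of it per cell cannot be told apart in such a sum.

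Cells sense oxygen through prolyl hydroxylases of the EGLN family, which mark the alpha subunits of hypoxia-inducible factor (HIF) for destruction by the VHL complex while oxygen is present. When oxygen falls the alpha subunit is kept, joins ARNT and binds DNA at short motifs of the form ACGTG or GCGTG, and genes for glucose uptake, glycolysis, pH control, blood vessel growth and mitochondrial turnover are induced. Hilpda, a small protein of lipid droplets, restrains the triglyceride lipase encoded by Pnpla2 and is itself a HIF target. Solid tumors commonly hold poorly perfused regions in which cancer cells and the myeloid cells around them use this response, and HIF1A is controlled mainly at the level of the protein, so its mRNA is not a readout of HIF activity.

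All 10 genes are protein-coding in GENCODE M21 on GRCm38, the assembly also called mm10, under the same identifiers as in the count tables. Hilpda lies on chromosome 6 (29272488 to 29275446, forward strand). RefSeq windows of 250 bases before to 50 after a start site were at hand for 9 of the 10 members, with more than 1 window for Hilpda and Pdk1. Both core motifs were searched on both strands, and CACGTG counts as ACGTG once on each strand. Of the 11 windows 10 held a match, and all 9 members with a window had at least 1 in a window. Of 32851 mouse windows 43.8% held either motif, 19.6% held ACGTG and 32.4% held GCGTG. Bnip3 had 5 matches, Ankrd37 4, and Hif1a and 1 Hilpda window 3 each, and 8.93% of all windows had 3 or more. Slc2a1, Adm and 1 Pdk1 window had 2 matches, and Egln3, Car9 and the other Hilpda window had 1. The other Pdk1 window had 0. A match of 5 letters describes the sequence and does not show a bound site.

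The windows of Hilpda, of 3 of the 4 other members that were lower in ENZ cancer cells (Slc2a1, Egln3 and Ankrd37, but not Adm, which had few UMIs) and of Bnip3, which was not, are printed to show how differently the motifs lie in them. Each is RefSeq sequence on GRCm38.p6 read 5′ to 3′ on the strand of the gene, and capitals mark both motifs on either strand.
Hilpda, chr6:29272376-29272675, forward strand: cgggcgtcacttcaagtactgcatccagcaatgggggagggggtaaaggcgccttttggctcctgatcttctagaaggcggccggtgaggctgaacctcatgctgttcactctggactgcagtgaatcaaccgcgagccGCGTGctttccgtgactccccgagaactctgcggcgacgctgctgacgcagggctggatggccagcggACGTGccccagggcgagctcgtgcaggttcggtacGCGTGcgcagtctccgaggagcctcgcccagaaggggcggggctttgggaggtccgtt
Slc2a1, chr4:119108495-119108794, forward strand: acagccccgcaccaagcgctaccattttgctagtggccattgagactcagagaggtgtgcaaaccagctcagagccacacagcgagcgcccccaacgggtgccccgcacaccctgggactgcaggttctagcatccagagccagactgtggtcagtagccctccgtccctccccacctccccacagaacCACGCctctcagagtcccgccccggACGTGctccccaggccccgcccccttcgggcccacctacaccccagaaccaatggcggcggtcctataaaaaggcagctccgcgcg
Egln3, chr12:54203825-54204124, reverse strand: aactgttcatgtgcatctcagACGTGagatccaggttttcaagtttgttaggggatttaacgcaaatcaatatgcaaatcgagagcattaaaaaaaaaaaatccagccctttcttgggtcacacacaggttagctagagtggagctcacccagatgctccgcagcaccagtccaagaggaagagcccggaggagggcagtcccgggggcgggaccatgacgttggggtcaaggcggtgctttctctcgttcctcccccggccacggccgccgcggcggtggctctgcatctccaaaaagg
Bnip3, chr7:138909457-138909756, reverse strand: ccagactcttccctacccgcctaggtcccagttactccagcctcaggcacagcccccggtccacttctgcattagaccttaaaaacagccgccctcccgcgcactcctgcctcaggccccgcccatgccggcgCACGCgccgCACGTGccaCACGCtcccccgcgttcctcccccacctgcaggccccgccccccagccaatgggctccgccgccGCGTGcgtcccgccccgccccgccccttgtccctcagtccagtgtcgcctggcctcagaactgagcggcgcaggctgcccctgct
Ankrd37, chr8:45999801-46000100, reverse strand: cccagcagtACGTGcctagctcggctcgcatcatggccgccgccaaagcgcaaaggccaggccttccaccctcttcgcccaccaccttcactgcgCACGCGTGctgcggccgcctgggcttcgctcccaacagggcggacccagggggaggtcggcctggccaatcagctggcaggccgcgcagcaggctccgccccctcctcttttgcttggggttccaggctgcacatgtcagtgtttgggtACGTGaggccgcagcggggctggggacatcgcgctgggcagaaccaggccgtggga
The 3 matches in the printed Hilpda window lie within 111 bases before the start site of that window. The other Hilpda window has base 29272488, the gene start, as its start site, and its 1 match lies at base 27 after it. All 3 printed matches thus lie after that gene start. The matches of Bnip3 lie within 117 bases before its start site, and the 1 match of Egln3 lies 229 bases before its own.

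The first question was which of these genes differed between ENZ and control cancer cells. Hilpda was at 134.9 CPM (132.6 to 137.2, 13521 UMIs) in control and 65.7 CPM (64.2 to 67.2, 7470 UMIs) in ENZ cancer cells, with ENZ over control at 0.487 (0.473 to 0.501). It was the 16th lowest ratio among 6713 genes that reached 20 CPM in 1 library or both. Of the 10 members 7 reached 20 CPM, and Car9, Adm and Ankrd37 did not. Hilpda was the only 1 of these 7 at least 1.5-fold lower in ENZ, where 0.834% of all 6713 genes were, and 0 of the 7 were at least 1.5-fold higher, where 0.417% of all genes were. Since the members were chosen on these values, nothing is read from these counts.

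**Figure D1:**
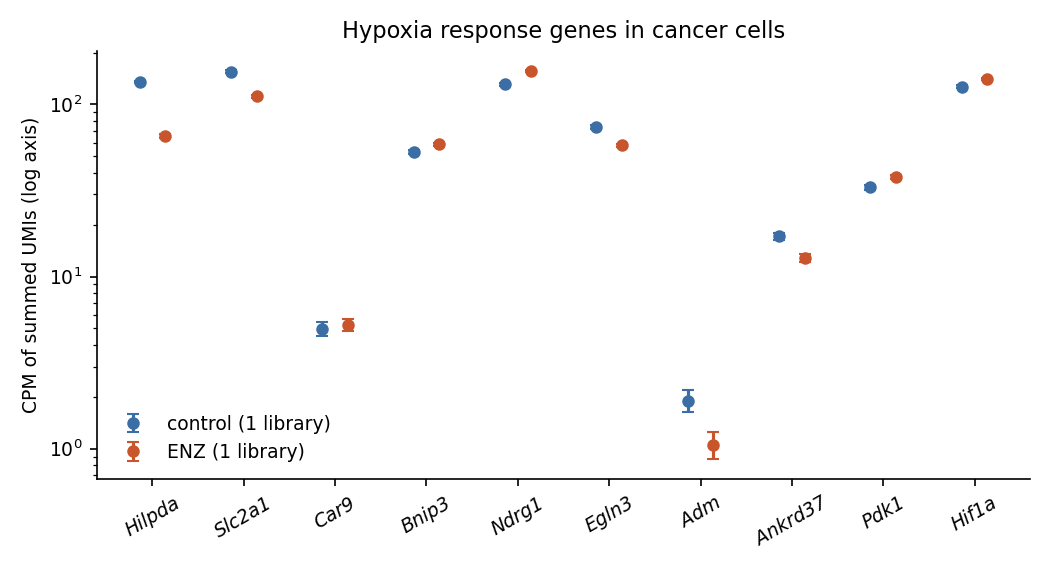
CPM of the 10 members in cancer cells of the control (blue) and ENZ (orange) library, on a log axis, with 95% Poisson intervals. Hilpda has the widest gap of the members above 20 CPM, from 134.9 to 65.7 CPM, and Bnip3, Ndrg1, Pdk1 and Hif1a are slightly higher in ENZ.

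The members did not differ in 1 direction. Slc2a1, the glucose transporter GLUT1, was at 155 CPM in control and 112 CPM in ENZ cancer cells (ratio 0.719, 0.702 to 0.736). Egln3, a HIF prolyl hydroxylase that HIF itself induces, was at 74.0 and 57.9 CPM (ratio 0.782, 0.757 to 0.809). Ankrd37, a small ankyrin repeat protein induced by HIF, was at 17.2 and 12.8 CPM (ratio 0.746, 0.696 to 0.801). These 3 genes were lower in ENZ by less than 1.5-fold, as only Hilpda passed that limit among members above 20 CPM.

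Ndrg1, Bnip3 and Pdk1 lay on the opposite side of 1 over all cancer cells, but not in every subset of them. Ndrg1, a stress-induced gene of the HIF response, was at 131 CPM in control and 156 CPM in ENZ (ratio 1.19, 1.17 to 1.22). Bnip3, a receptor for mitophagy in the outer mitochondrial membrane, was at 52.9 and 58.6 CPM (ratio 1.11, 1.07 to 1.15). Pdk1, the kinase that turns pyruvate away from mitochondria, was at 33.1 and 38.0 CPM (ratio 1.15, 1.096 to 1.20). All 3 were higher in ENZ by less than 1.5-fold. Among cells of 40000 or more UMIs the ratio of Ndrg1 was 0.973 and that of Bnip3 0.940, with intervals that held 1.

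Hif1a itself was at 127 CPM in control and 141 CPM in ENZ cancer cells (ratio 1.11, 1.09 to 1.14). Car9, the membrane carbonic anhydrase often used as a hypoxia marker, was low at 4.96 and 5.24 CPM, and its ratio of 1.06 had an interval that held 1 (0.937 to 1.19). Adm, the vasoactive peptide adrenomedullin, was lower still at 1.90 and 1.05 CPM (ratio 0.552, 0.435 to 0.698) and had UMIs in 1.02% and 1.05% of cancer cells. This difference in Adm was not seen at matched depth, where cells thinned to 8000 UMIs held 0.0155 and 0.0156 Adm UMIs on average, in 20 control and 28 ENZ cells. Its ratio was 1.58 (0.965 to 2.61) in cells of 8000 to 15000 UMIs and 0.0634 (0.0167 to 0.171, from 60 and 4 UMIs) in cells of 40000 or more. Over all cancer cells the counting intervals of 5 members lay below a ratio of 1, those of 4 lay above it and that of Car9 held it, but only Hilpda, Slc2a1 and Egln3 kept their direction in all 14 subsets by UMIs, proliferation genes, keratins, dissociation genes and Gm42418. The median log2 ratio of the 7 members above 20 CPM was 0.15, beside 0.05 over all 6713 genes.

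The level of Hilpda differed within the cancer cells too, and it was lower in ENZ in every subset looked at. In control cells it was at 75.9 CPM in cells of 8000 to 15000 UMIs and at 154 CPM in cells of 40000 or more, and in ENZ cells at 38.8 and 69.1 CPM. The ratios over the 4 UMI ranges were 0.511, 0.480, 0.520 and 0.448. Among cells with 3 or more UMIs of the proliferation genes Mki67 and Top2a, after each cell was thinned to 8000 UMIs, the ratio was 0.4996, and among cells with none it was 0.460. It was 0.447 in cells above the median of Krt8 and Krt18 UMIs and 0.515 in the others. In all 8 of these subsets the interval lay below 0.575.

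Other features of the libraries moved with the difference in Hilpda. The 12 immediate early and heat shock genes that tissue dissociation is known to induce were all lower in ENZ cancer cells, 6 of them at least 1.5-fold, beside 0.834% of all genes, and their median log2 ratio was -0.57, beside 0.05 over all genes. Fos had a ratio of 0.537 and so had Hspa1a. Gm42418, whose reads resemble ribosomal RNA, was at 10781 CPM in control and 29200 CPM in ENZ cancer cells. With the ribosomal protein, mitochondrial and rRNA-like genes left out of the total, the Hilpda ratio was 0.489. Cancer cells of both libraries together were split into tertiles by each feature in thinned cells, a choice made after these values had been seen.

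Within the tertiles the ratio of Hilpda was not constant. From the lowest to the highest tertile of dissociation gene UMIs it was 0.787 (0.744 to 0.832), 0.463 and 0.334 (0.311 to 0.358). From the lowest to the highest tertile of Gm42418 UMIs it was 0.503, 0.700 and 0.830 (0.727 to 0.952). Hilpda was thus lower in ENZ in all 6 tertiles, but by less than 1.5-fold in 3 of them, the lowest tertile of dissociation genes and the upper tertiles of Gm42418. The Gm42418 tertiles hold the libraries very unequally, with 2390 control and 314 ENZ cells in the lowest and 251 and 2433 in the highest. Slc2a1 (ratios from 0.647 to 0.781) and Egln3 (0.714 to 0.869) kept closer to their overall ratios in these tertiles. Ndrg1 and Bnip3 did not keep their direction. Ndrg1 ran from 0.869 (0.826 to 0.913) in the lowest tertile of Gm42418 to 1.53 (1.46 to 1.59) in the highest of dissociation genes. Bnip3 ran from 0.843 (0.778 to 0.912) in the lowest to 1.26 (1.08 to 1.48) in the highest tertile of Gm42418. Ankrd37, at 0.746 over all cancer cells, had a ratio of 1.36 (0.959 to 1.99, from 33 and 631 UMIs) in the highest tertile of Gm42418. Pdk1 was at 0.991 (0.895 to 1.097) in the highest tertile of dissociation genes and Hif1a at 0.998 (0.955 to 1.04) in the middle tertile of Gm42418. Car9 was below 1 in 8 of the 14 subsets, with an interval below 1 in the lowest tertile of Gm42418 (0.717, 0.535 to 0.945).

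**Figure D2:**
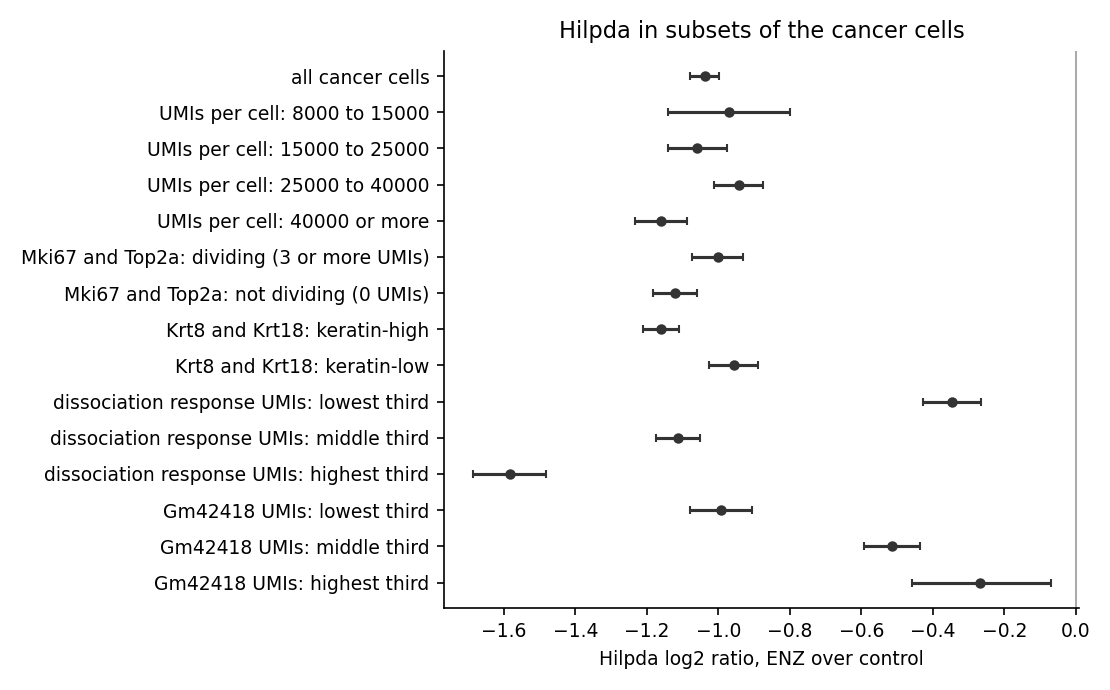
Log2 ratio of Hilpda, ENZ over control, in all cancer cells and in subsets of them by UMIs, proliferation genes, keratins, dissociation genes and Gm42418, with 95% counting intervals. All points lie below 0, from -0.27 in the highest tertile of Gm42418 to -1.58 in the highest tertile of dissociation genes.

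Counted per cell, the difference lay in how many cancer cells carried Hilpda and in how much they carried. With every cell thinned to 8000 UMIs, 42.8% of control cells (41.2% to 44.4%, exact Clopper-Pearson interval) and 29.9% of ENZ cells (28.5% to 31.3%) had a Hilpda UMI. Without thinning the shares were 66.0% and 56.0%. Cells with 3 or more thinned UMIs made up 11.8% of control (450 cells) and 4.24% of ENZ cells (182 cells), and the most in 1 cell were 21 and 12 UMIs. Hilpda was unevenly spread in both libraries, with the tenth of cells that had most of it holding 53.2% of its thinned UMIs in control and 57.6% in ENZ. Egln3 (56.9% and 55.6%), Bnip3 (56.3% and 53.8%), Pdk1 (55.3% and 49.0%) and Ndrg1 (54.3% and 46.5%) were about as uneven, while Slc2a1 (43.2% and 39.6%) and Hif1a (36.3% and 32.7%) were spread more evenly. This share depends on the level of a gene, and thinned cells held 0.970 Hilpda UMIs on average in control and 0.482 in ENZ.

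Ndrg1 and Bnip3 were found in more cells of the ENZ library. Ndrg1 was detected in 44.6% of thinned control and 54.5% of thinned ENZ cells and Bnip3 in 28.1% and 32.2%. Slc2a1 was found in 57.1% of control and 53.4% of ENZ cells, with 3 or more UMIs in 15.8% and 8.72%. No class is known to lack Hilpda, so free RNA was gauged from barcodes of at most 100 UMIs, in which control stood at 211 CPM of Hilpda and ENZ at 91.3 CPM. The neutrophil genes S100a8 and S100a9 gave a share of free RNA of 4.23% in control and 3.41% in ENZ cancer cells, and after it was subtracted Hilpda stood at 131.5 and 64.8 CPM.

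Car9 was at the edge of detection. Thinned to 1000 UMIs, it was found in 0.315% of control and 0.373% of ENZ cancer cells, and in 0.339% and 0.506% of macrophages, which rest on 4 and 3 cells. Unthinned, cancer cells of either library had it in 7.197% and 8.11% of cells, at a far greater depth. At 1000 UMIs the shares of cancer cells and macrophages could not be told apart. The free RNA estimated above would give 0.0773 CPM of Car9 in control and 0.216 CPM in ENZ cancer cells, which is far below the 4.96 and 5.24 CPM measured.

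Around the members, further genes of the HIF response were set beside all genes. Of 34 further hypoxia targets 29 reached 20 CPM in cancer cells, with 0 at least 1.5-fold higher in ENZ and 2 lower, Ier3 (1303 to 844 CPM) and Cited2 (151 to 95.4 CPM), beside 0.417% and 0.834% of all genes. The blood vessel growth factor Vegfa was at 159 and 156 CPM (ratio 0.981, 0.960 to 1.002), but its ratio was 1.42 (1.36 to 1.49) in the lowest tertile of dissociation genes and its lowest in a subset was 0.835. Of the glycolytic enzymes, Ldha had a ratio of 0.977, Pgk1 1.03, Hk2 0.801 and the regulator Pfkfb4 1.46. The median log2 ratio of the 29 genes was -0.05, beside 0.05 over all genes.

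Regulators of the pathway were set beside all genes as well. Of 9 HIF pathway regulators 6 reached 20 CPM, with Arnt at 97.3 and 103 CPM and Egln1 at 25.9 and 27.3 CPM. None of the 6 was 1.5-fold different, but neither were 6629 of all 6713 genes, so little is read from this count. Epas1, which encodes HIF-2 alpha, was at 18.1 and 20.5 CPM. Egln3 was the only 1 of these 6 with a ratio below 1, at 0.782, the 182nd lowest of the 6713.

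Genes of lipid droplets, where the Hilpda protein acts, were compared next. Of 10 on the list 3 reached 20 CPM and all 3 were lower in ENZ by less than 1.5-fold, with a median log2 ratio of -0.33, beside 0.05 over all genes, of which 3988 of 6713 had a ratio above 1. Plin2, the coat protein of lipid droplets, was at 115 and 87.5 CPM (ratio 0.758, 0.738 to 0.779), and it had ratios between 0.719 and 0.796 in all 6 tertiles above. Pnpla2, the lipase that Hilpda restrains, was at 19.1 and 18.0 CPM, and G0s2, another inhibitor of that lipase, was at 6.63 and 1.57 CPM. Fabp5, a fatty acid binding protein, had a ratio of 0.796.

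The lists for mitophagy, the integrated stress response and the cell cycle had 5 of 9, 7 of 9 and 10 of 10 genes at 20 CPM. None of the mitophagy and cell cycle genes was 1.5-fold different. Of all 6713 genes 0.417% were at least 1.5-fold higher and 0.834% lower, so little is read from counts in lists this short. In mitophagy Bnip3l, the relative of Bnip3, had a ratio of 0.961 and Optn 1.34. In the stress response Sesn2 was past 1.5-fold, with 13.8 CPM in control and 21.2 CPM in ENZ, but it reached 20 CPM only in ENZ, while the transcription factor Atf4 had a ratio of 0.943.

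The second question was where else in the tumor these genes were found. In CPM, Hilpda was highest in neutrophils in both libraries, at 648 CPM in control (613 to 683) and 542 CPM in ENZ (492 to 595). A CPM is a share of UMIs and not an amount per cell. Neutrophils had medians of 1974 and 2094 UMIs, against 21957 and 22694 in cancer cells. Without thinning, 37.9% of control and 32.4% of ENZ neutrophils had a Hilpda UMI, against 66.0% and 56.0% of cancer cells. Control macrophages followed at 206 CPM and control monocytes at 187 CPM, with overlapping intervals, then cancer cells at 134.9 CPM. Dendritic cells (76.7 CPM), NK cells (72.7 CPM) and T cells (65.2 CPM) came last with intervals that overlap their neighbours. In ENZ the order was neutrophils, monocytes (172 CPM), macrophages (131 CPM), NK cells (107 CPM), T cells (105 CPM), cancer cells (65.7 CPM) and dendritic cells (47.2 CPM). The intervals of macrophages, NK cells and T cells overlapped from neighbour to neighbour there, as did those of cancer cells and dendritic cells. Cancer cells stood in the fourth place in control and shared the lowest places with dendritic cells in ENZ.

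**Figure D3:**
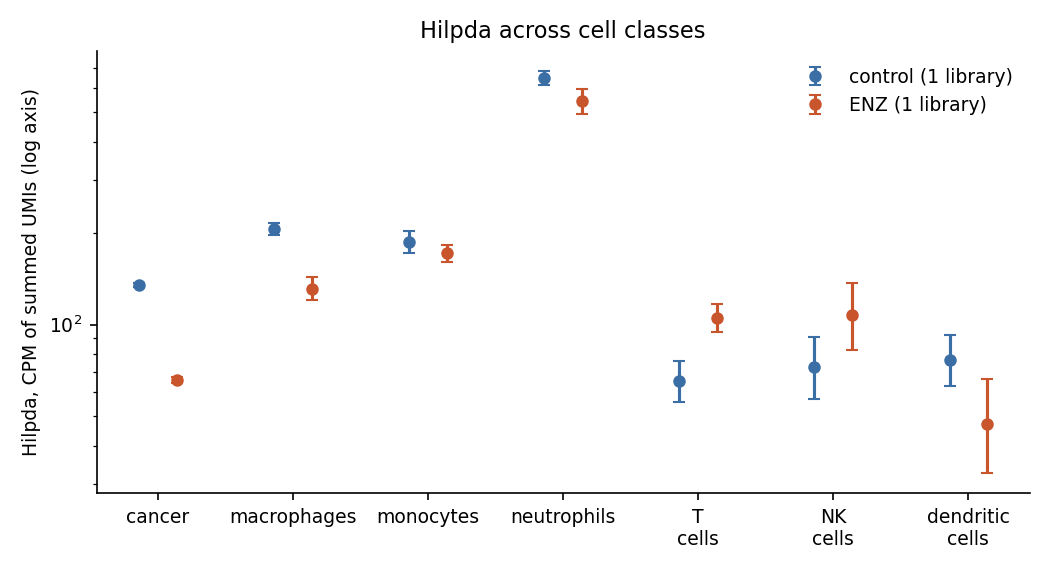
Hilpda in 7 cell classes of the control (blue) and ENZ (orange) library, in CPM on a log axis with 95% Poisson intervals for counting error. Neutrophils lie above 490 CPM in both libraries, and the control point is the lower in T cells and NK cells and the higher in the other classes.

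Between the libraries, Hilpda was lower in ENZ macrophages (ratio 0.635, 0.576 to 0.700) and dendritic cells (0.615, 0.403 to 0.917). In neutrophils the ratio was 0.837 (0.749 to 0.933), but among neutrophils of at least 2000 UMIs it was 1.004. In monocytes the interval held 1 (0.918, 0.828 to 1.02). In T cells Hilpda was higher in ENZ (ratio 1.61, 1.34 to 1.95, from 166 and 350 UMIs), as in NK cells (1.47, 1.04 to 2.09, from 74 and 64 UMIs). Gm42418 was also higher in the ENZ immune cells, with ratios of 2.999 in macrophages, 2.58 in monocytes and 1.71 in neutrophils, and the sum of the 12 dissociation genes had a ratio of 0.688 in macrophages and 0.578 in dendritic cells. The ratio of that sum was 0.887 in monocytes, 0.968 in neutrophils, 0.938 in T cells and 0.916 in NK cells. The part of either feature in these ratios was not tested.

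Markers of other classes moved in these smaller gates as well, some with Hilpda and some against it. In T cells all 5 epithelial markers were higher in ENZ, with sums of 46.8 and 78.2 CPM and Krt8 the most abundant, as were all 4 cancer genes, at 32.6 and 48.8 CPM with Rhox5 the most abundant. The 3 mast cell markers summed to 23.2 and 76.1 CPM there, 2 of them higher in ENZ, with Kit the most abundant in control and Cpa3 in ENZ. Macrophage markers went the other way in T cells, with sums of 188 and 109 CPM, 7 of 8 lower and Apoe the most abundant. The neutrophil markers summed to 96.7 and 64.7 CPM there, with 3 of 6 lower and S100a9 the most abundant. In NK cells 4 of the 5 epithelial markers were higher, with sums of 48.1 and 88.7 CPM and Krt18 the most abundant in control and Cdh1 in ENZ. Cdh1 was at 0.7 CPM in cancer cells. Of the 8 macrophage markers 5 were lower in ENZ NK cells, at 170 and 82.0 CPM in sum with Apoe the most abundant. Mast cell markers (76.6 and 119 CPM) and endothelial markers (120 and 194 CPM) were higher in sum, and erythroid markers (283 and 3.35 CPM) lower. In dendritic cells 5 of the 6 neutrophil markers were lower in ENZ, with sums of 216 and 38.6 CPM and S100a9 the most abundant in control and S100a8 in ENZ. Of the 8 macrophage markers 6 were lower there, at 281 and 159 CPM in sum with Apoe the most abundant, and neutrophils and macrophages held more Hilpda than dendritic cells in both libraries. In NK cells Cpa3, Hba-a1 and Cdh5 were at 0 in ENZ, and Kdr and Egfl7 in both libraries. Within the lists given above for a class, no other marker was at 0 in that class in either library. Free RNA was not estimated in T, NK and dendritic cells, and the part of these markers in the ratios was not tested. The direction of Hilpda was thus not shared by all classes, and the difference between classes was not tested.

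In macrophages, 7 members reached 20 CPM. Hilpda was the 1 that was at least 1.5-fold lower, where 4.16% of 6220 genes were, and Hif1a the 1 that was at least 1.5-fold higher, where 10.2% of genes were. Hif1a was at 287 CPM in control and 440 CPM in ENZ macrophages (ratio 1.53, 1.44 to 1.63). Bnip3 had a ratio of 1.46 (1.25 to 1.69), Pdk1 of 1.44 and Slc2a1 of 0.961 with an interval that held 1. The median log2 ratio of the 7 members was 0.35 and that of all genes 0.15, so the members' values are read beside that shift. Markers differed in this gate too. Of the 8 macrophage markers 4 were higher in ENZ, with sums of 14368 and 12033 CPM and Apoe the most abundant, and among them the mannose receptor Mrc1 was at 637 CPM in control and 1302 CPM in ENZ. The 6 monocyte markers summed to 1015 CPM in control and 1574 CPM in ENZ macrophages, with 4 of the 6 higher in ENZ, Plac8 the most abundant in control and F13a1 in ENZ. The 6 neutrophil markers summed to 682 and 389 CPM, with 5 of the 6 lower in ENZ, S100a9 the most abundant in control and Mmp9 in ENZ. All 5 epithelial markers were higher in ENZ macrophages, with sums of 38.2 and 74.1 CPM and Krt8 the most abundant. All 4 cancer genes were higher too, at 31.5 and 41.2 CPM in sum. None of these markers was at 0, and their part in the ratios was not tested.

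In monocytes, 8 members reached 20 CPM and 2 were at least 1.5-fold higher in ENZ, beside 9.19% of 5689 genes. These were Ndrg1, at 88.8 and 142 CPM (ratio 1.60, 1.39 to 1.83), and Pdk1, at 14.9 and 22.8 CPM, which reached 20 CPM only in ENZ, so that its place in the count rests partly on that limit. None was 1.5-fold lower, beside 5.59% of genes, and Egln3 came closest at 39.4 and 27.6 CPM (ratio 0.701, 0.549 to 0.896). Hif1a was at 328 and 483 CPM (ratio 1.47), just short of the limit. Slc2a1 and Bnip3 had ratios of 1.08 and 1.05 with intervals that held 1. The median log2 ratio of the 8 members was 0.09, beside 0.05 over all genes. Of the 5 epithelial markers 4 were higher in ENZ monocytes, with sums of 56.2 and 87.4 CPM and Krt8 the most abundant in control and Cdh1 in ENZ. Cdh1, at 0.7 CPM in cancer cells, was at 19.6 and 37.7 CPM in monocytes, and Krt8 at 20.2 and 25.2 CPM. Of the 8 macrophage markers 5 were higher, with sums of 1166 and 1428 CPM, Apoe the most abundant and Mrc1 at 63.3 and 106 CPM. The 6 monocyte markers summed to 7046 and 7449 CPM, but Chil3 was at 1108 CPM in control and 3152 CPM in ENZ, and only 2 of the 6 were higher. None of these markers was at 0 in both libraries, and their part in the ratios was not tested.

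In neutrophils, 8 members reached 20 CPM, with 2 at least 1.5-fold lower (8.43% of 4779 genes were) and 1 higher (13% were). Egln3 was at 233 CPM (481 UMIs) in control and 115 CPM (93 UMIs) in ENZ neutrophils, a ratio of 0.495 (0.392 to 0.619). Ankrd37 was at 41.7 and 16.1 CPM on 86 and 13 UMIs (ratio 0.387, 0.198 to 0.697), and reached 20 CPM only in control. Ndrg1 was the higher 1, at 29.1 and 57.0 CPM on 60 and 46 UMIs (ratio 1.96, 1.31 to 2.93). The median log2 ratio of the 8 members was -0.24, beside 0.07 over all genes. Plin2 was lower there as well, at 944 and 549 CPM (ratio 0.582). All 6 monocyte markers were higher in ENZ neutrophils, with a sum of 552 CPM in control and 1266 CPM in ENZ, Plac8 the most abundant in control and Chil3 in ENZ, and none at 0. ENZ monocytes held 142 CPM of Ndrg1, and the part of these markers in the neutrophil ratios was not tested.

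Besides Hilpda, neutrophils were highest by CPM in Slc2a1, Bnip3 and Egln3 in both libraries and in Ankrd37 in control only. Slc2a1 was at 327 CPM in control and 283 CPM in ENZ neutrophils, against 155 and 112 CPM in cancer cells and 134 and 145 CPM in monocytes. Bnip3 was at 151 and 123 CPM in neutrophils, against 65.5 and 68.7 CPM in monocytes and 49.5 and 72.1 CPM in macrophages. Egln3 followed with cancer cells second in both libraries. Hif1a had another order, highest in T cells at 429 CPM in control and 611 CPM in ENZ and lowest in cancer cells in both libraries. Ndrg1 was highest in dendritic cells, at 134 and 246 CPM, but in control its interval there overlapped those of macrophages and cancer cells. Neutrophils were lowest in Ndrg1 in control, at 29.1 CPM, with an interval that overlapped that of T cells. Pdk1 was highest in cancer cells in both libraries, at 33.1 and 38.0 CPM. In T cells Ndrg1 (38.5 and 64.4 CPM), Egln3 (21.6 and 36.1 CPM) and Hif1a were higher in ENZ together with Hilpda, with ratios of 1.67, 1.67 and 1.42.

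**Figure D4:**
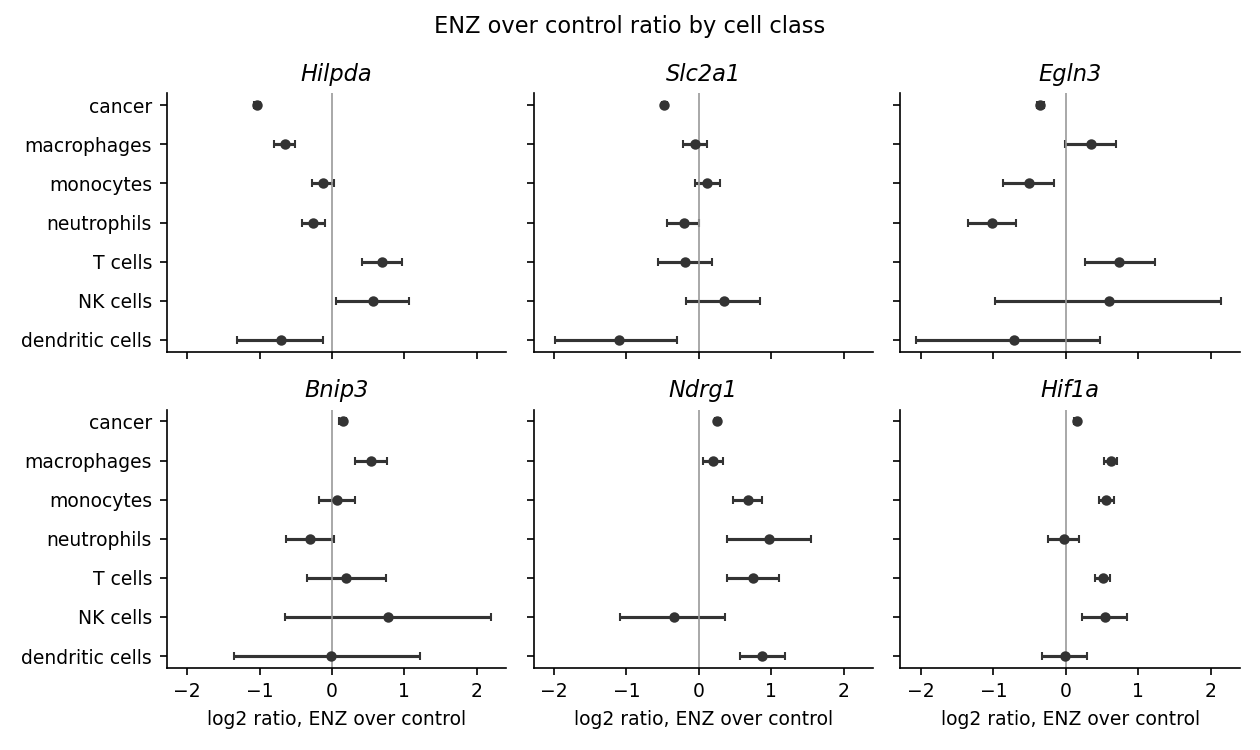
Log2 ratios, ENZ over control, of 6 members in 7 cell classes with 95% counting intervals, 1 panel per gene. The interval of Hilpda lies below 0 in cancer cells, macrophages, neutrophils and dendritic cells and above it in T and NK cells, Egln3 is lowest in neutrophils, and Hif1a lies above 0 in cancer cells, macrophages, monocytes, T cells and NK cells.

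The third question was what accompanied Hilpda from cell to cell. Across cancer cells thinned to 8000 UMIs, 7801 genes had at least 0.1 UMI per cell in both libraries, and they were ranked by the lower of their Spearman correlations with Hilpda in the 2 libraries. The cells of a library share its depth and free RNA, the counts are sparse, and all values are small, with medians of -0.01 in both libraries and 95th percentiles of 0.062 in control and 0.047 in ENZ. The correlations are therefore a description and carry no p.

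The genes that ranked highest lay outside the members. The top 10 outside the members were Cxcl1 (0.284 in control and 0.203 in ENZ), Ier3 (0.372 and 0.196), Ccl2 (0.270 and 0.194), Mt1 (0.250 and 0.188), Mt2 (0.248 and 0.186), Gapdh (0.269 and 0.181), Areg (0.179 and 0.174), Mif (0.203 and 0.161), Cxcl2 (0.217 and 0.160) and Nfkbia (0.282 and 0.159). Cxcl1, Cxcl2 and Ccl2 are chemokines, Nfkbia is the NF-kB inhibitor that NF-kB induces, Mt1 and Mt2 are metallothioneins, and Areg is a ligand of the EGF receptor. Ier3 is also on the list of further hypoxia targets, and of the others on that list Ldha was 12th, Vegfa 14th and Pgk1 16th. Of the members Ndrg1 was 28th (0.158 and 0.114), Egln3 87th (0.082 in both), Bnip3 325th, Pdk1 866th, Ankrd37 1260th, Slc2a1 1834th and Hif1a 2833rd. Slc2a1, which was lower in ENZ along with Hilpda, was hardly correlated with it across cells (0.028 and 0.005). The genes ranked here differed widely in level, with Gapdh at 2339 CPM and Ndrg1 at 131 CPM in control cancer cells. How far the ranks depend on level was not tested.

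To give these correlations as sizes, cells with 3 or more thinned Hilpda UMIs (450 control and 182 ENZ cells) were set beside cells with 0 (2178 and 3007). The top 10 genes were picked by correlation in these same cells, so their ratios restate that choice. Areg was 3.90-fold higher in the Hilpda-high cells of control (3.51 to 4.32) and 3.45-fold higher in those of ENZ (3.07 to 3.86). Cxcl2 was 2.97-fold and 2.67-fold higher, Ier3 2.73-fold and 2.11-fold, and Ccl2 2.63-fold and 2.20-fold. Cxcl1 was 2.35-fold and 2.08-fold higher, Mt2 1.93-fold and 1.71-fold, and Mt1 1.85-fold and 1.66-fold. Nfkbia was 1.80-fold and 1.56-fold higher, Mif 1.51-fold and 1.33-fold, and Gapdh 1.48-fold and 1.35-fold. The cells were selected on Hilpda, so that only other genes are compared.

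Among the other members, 7 had at least 0.1 UMI per cell. In control, 3 of the 7 were at least 1.5-fold higher in Hilpda-high cells, beside 1.56% of 8007 genes, namely Ndrg1 (2.11, 1.94 to 2.29), Bnip3 (1.91, 1.67 to 2.19) and Ankrd37 (1.81, 1.40 to 2.33). In ENZ 1 of the 7 was, beside 0.99% of 7978 genes, and that was Ndrg1 (1.54, 1.37 to 1.72), while Bnip3 had a ratio of 1.35 and Ankrd37 of 1.06. Egln3 was 1.42-fold and 1.37-fold higher. Slc2a1 (1.001 and 1.09) and Hif1a (1.07 and 0.954) had intervals that held 1 in both libraries. The order by correlation was not the order by size. In control Ndrg1, Bnip3 and Ankrd37 had larger ratios than Gapdh and Mif, and the other members smaller ones. In ENZ Ndrg1 and Egln3 had larger ratios than both, Bnip3 lay between them, and the other members had smaller ratios. The median log2 ratio of the 7 members was 0.51 in control and 0.13 in ENZ, and that of all genes was -0.08 and -0.06. The order of the 2 libraries turned with the settings, since with thinning to 4000 UMIs the members' medians were 0.60 and 0.65, and in cells without Mki67 and Top2a UMIs 0.24 and 0.50.

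**Figure D5:**
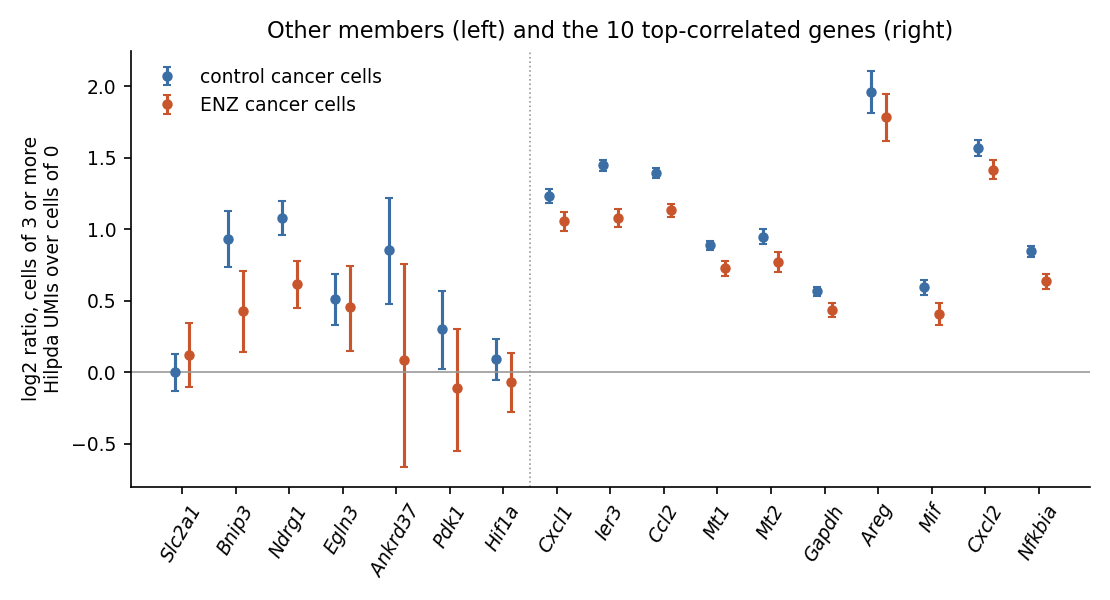
Log2 ratio of UMIs in cancer cells with 3 or more Hilpda UMIs over cells with 0, for the 7 other members with at least 0.1 UMI per cell (left of the dotted line) and the 10 genes that ranked highest by correlation (right), in control (blue) and ENZ (orange), with 95% counting intervals. Areg is highest in both libraries, the intervals of Slc2a1 and Hif1a hold 0, and Ndrg1 is the member with the highest ratio in both.

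Further hypoxia targets were counted in the same way. Of 29 with enough UMIs in control 9 were at least 1.5-fold higher and 25 had a ratio above 1, and of 30 in ENZ these numbers were 4 and 25. Of all genes, 125 of 8007 in control and 79 of 7978 in ENZ were at least 1.5-fold higher, and 3148 and 3287 had a ratio above 1. Vegfa was 2.38-fold and 1.84-fold higher and Ero1a, an oxidase of disulfide formation listed as Ero1l in the files, 2.16-fold and 1.80-fold. P4ha1 had ratios of 0.971 and 0.826. Hilpda-high cells were deeper before thinning, at a median of 24879 against 19924 UMIs in control and 26223 against 21680 in ENZ. They also had less Gm42418 (10933 against 15237 CPM and 28101 against 35981 CPM). Of the 10 cell cycle genes 2 had a ratio above 1 in each library. Their median log2 ratios were -0.22 and -0.12, beside -0.08 and -0.06 over all genes, and Mki67 had ratios of 0.758 and 0.664. The part of these features in the ratios was not tested. The summed dissociation genes were at 9462 and 9086 CPM in control and 6422 and 6744 CPM in ENZ, slightly higher in the high cells of control and slightly lower in those of ENZ.

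Between the libraries, the genes that went with Hilpda from cell to cell lay on both sides of 1. In ENZ over control cancer cells, Areg had a ratio of 1.16 (1.12 to 1.19), Cxcl2 of 1.26, Ccl2 of 1.15 and Cxcl1 of 1.08. The ratio of Areg turned within subsets, from 0.832 (0.798 to 0.867) in the middle tertile of dissociation genes to 2.66 (2.49 to 2.85) in the middle tertile of Gm42418, and it was below 1 in 4 of 14 subsets. The other 9 genes of the top 10 were not compared within subsets. Ier3 was lower, at 0.648, as were Mt1 at 0.781, Gapdh at 0.883 and Nfkbia at 0.933. Mt2 had a ratio of 1.01 and Mif of 1.004. Of the top 10, Ier3 was the only gene past 1.5-fold in the direction of Hilpda.

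Bnip3 and Ndrg1 formed the closest pair among the members, with a correlation of 0.205 in control and 0.179 in ENZ. By the lower of the 2 libraries Hilpda with Ndrg1 (0.158 and 0.114), Bnip3 with Egln3 (0.118 and 0.111) and Car9 with Bnip3 (0.165 and 0.108) followed. In control alone the order differed, with Car9 and Bnip3 second, and Ndrg1 with Egln3 (0.148), Slc2a1 with Ndrg1 (0.125) and Bnip3 with Ankrd37 (0.123) above Bnip3 with Egln3. Cancer cells with 2 or more thinned Bnip3 UMIs were 311 in control and 439 in ENZ. Over cells with none, they had 3.11-fold and 2.24-fold more Ndrg1, 2.20-fold and 1.74-fold more Egln3, 2.96-fold and 2.64-fold more Ankrd37 and 1.52-fold and 1.35-fold more Slc2a1. Hilpda was 1.76-fold higher in them in control (1.59 to 1.94) and 1.17-fold in ENZ (1.01 to 1.35). In cells with 3 or more thinned Ndrg1 UMIs, over cells with none, Hilpda was 2.03-fold and 1.74-fold higher. With the split made in the same way by Areg, which was picked by its correlation with Hilpda, it was 2.65-fold and 2.60-fold higher. Gm42418 had ratios of 0.713 and 0.770 in the split by Areg, 0.930 and 0.982 by Bnip3, and 0.936 and 1.04 by Ndrg1. Its part in the other ratios was not tested.

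Car9, low over all cancer cells, was higher in the Bnip3-high than in the Bnip3-zero cells. All thinned cancer cells held 149 Car9 UMIs in control and 168 in ENZ, and cells with 1 Bnip3 UMI are in neither group. It had 65 UMIs in the 311 Bnip3-high control cells and 41 in all Bnip3-zero control cells, a ratio of 14.0 (9.30 to 21.2). In ENZ it had 45 and 69 UMIs, a ratio of 4.32 (2.90 to 6.38). The ratio of Car9 was 8.09 in control and 2.92 in ENZ with the split made by Ndrg1, and 2.96 and 2.71 by Areg. In Hilpda-high over Hilpda-zero cells the ratio of Car9 was 2.67 in control (1.74 to 4.05) and 1.70 in ENZ (0.792 to 3.27), with less than 0.1 UMI per cell in both. Hif1a had ratios of 1.05 and 0.989 between Bnip3-high and Bnip3-zero cells, with intervals that held 1.

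The same split was made in myeloid cells. Macrophages and monocytes were thinned to 3000 UMIs and neutrophils to 1000, and cells with 2 or more Hilpda UMIs were set beside cells with 0. In neutrophils (123 high control cells and 38 high ENZ cells) Bnip3 was 4.29-fold higher in control (2.89 to 6.33) and 9.92-fold in ENZ (4.65 to 21.9, on 19 and 13 UMIs). Egln3 was 3.08-fold higher in control neutrophils (2.22 to 4.24), and in ENZ its ratio of 1.31 rested on 5 and 26 UMIs with an interval that held 1.

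Of the genes chosen after values had been seen, Plin2 was 1.73-fold and 3.10-fold higher in the Hilpda-high neutrophils, and the chemokine Cxcl2 3.12-fold and 3.63-fold. Vegfa had intervals that held 1 in neutrophils, with ratios of 1.41 (0.680 to 2.69) and 1.94 (0.465 to 6.18). Ndrg1 had ratios of 0.661 and 1.81 there, on 3 and 4 UMIs in the high cells, with intervals that held 1.

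In monocytes (51 and 103 high cells) Bnip3 was 4.88-fold higher in control and 3.53-fold in ENZ, Egln3 3.85-fold and 3.16-fold, Ndrg1 2.05-fold and 2.22-fold and Vegfa 2.80-fold and 2.94-fold. In macrophages (125 and 38 high cells) Egln3 was 2.79-fold and 2.94-fold higher and Vegfa 2.12-fold and 2.59-fold. Bnip3 was 3.04-fold higher in control macrophages (2.01 to 4.54), and its ratio of 1.68 in ENZ had an interval that held 1. Ndrg1 was 2.04-fold higher in control macrophages (1.57 to 2.64), and its ratio in ENZ was 1.28 (0.722 to 2.14). Ankrd37, with few UMIs in all of these comparisons, had ratios of 2.45 (1.08 to 5.23) in control and 6.86 (2.17 to 20.7) in ENZ macrophages, and of 5.66 (2.80 to 11.2) and 1.26 (0.474 to 2.87) in monocytes. In neutrophils its ratios were 3.01 (1.36 to 6.34) in control and 2.26 in ENZ, the latter on 1 and 3 UMIs with an interval that held 1. Pdk1 ran from 0.387 to 1.63 in the 4 comparisons of macrophages and monocytes, with 1 in every interval. Slc2a1 had intervals above 1 in control neutrophils (1.60, 1.18 to 2.13), ENZ macrophages (2.09, 1.25 to 3.35) and ENZ monocytes (1.37, 1.02 to 1.82). Hif1a had them in ENZ macrophages (1.45, 1.12 to 1.86) and ENZ monocytes (1.22, 1.03 to 1.43). In the other myeloid comparisons the intervals of both genes held 1. Egln3 had intervals above 1 in the Hilpda-high macrophages and monocytes of both libraries, although it had less than 0.1 UMI per cell in control macrophages and ENZ monocytes. Of the genes chosen after values had been seen, Vegfa, Plin2, Cxcl2 and Ptgs2 had intervals above 1 in the same 4 comparisons. Areg, the other gene so chosen, had an interval above 1 in control macrophages (2.12, 1.51 to 2.94) and monocytes (3.16, 1.58 to 6.01). In ENZ its interval held 1 in both, with ratios of 0.294 (0.00720 to 1.77, on 1 and 30 UMIs) in macrophages and 1.51 (0.676 to 3.05) in monocytes, and the Hilpda-high neutrophils of both libraries had 0 Areg UMIs. The all-gene median log2 ratios of these comparisons lay between -0.13 and -0.005. Gm42418 was lower in the Hilpda-high cells of every class and library compared, with intervals below 1. Its ratios ran from 0.846 in ENZ neutrophils to 0.982 in ENZ monocytes, and its part in the other ratios was not tested.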

How the data were processed

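From each condition 1 tumor, control or ENZ, was profiled by 10x scRNA-seq. The tables that the authors deposited hold raw UMI counts of every barcode, neither filtered nor normalized. The submitters' processing notes name Cell Ranger 2.1.1 and mm10, whereas the header of the count tables names Cell Ranger 7.2.0, and the counting of intronic reads is not given in the sources used here. The labels name the 3′ v2 chemistry, but the 2438568 control and 2239744 ENZ barcodes listed are more than that chemistry allows. Which is right was not settled.

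The members, lists and gates were chosen with earlier results of these data known. The genes named are the 10 members, those of 8 fixed lists, and the 10 with the highest correlation with Hilpda. Areg, Cxcl2, Plin2, Ptgs2 and Vegfa in the myeloid comparison, and the tertiles of cancer cells, were chosen after values had been seen. Macrophages needed 40, monocytes 15 and neutrophils 100 marker UMIs per 10000 UMIs, with at least 200 genes and at most 1 UMI of the 4 cancer genes in each immune cell. Doublets were limited by the gates, and Scrublet (Scanpy 1.11.5) was an alternative. The automatic threshold of the ENZ library, 0.223, was used for both (that of control was 0.199) and marked 2.91% of control and 3.63% of ENZ cells. Where 2 rows shared a symbol, the row with more UMIs was used. CPM values have exact Poisson, ratios exact conditional binomial and shares Clopper-Pearson intervals at 95%. There is 1 library per condition, so no test was made and no p-value is given. Cells were thinned without replacement, and no cancer cell was left out by it, while 234 control and 139 ENZ macrophages and 97 and 159 monocytes under 3000 UMIs were. The scripts, in Python 3.11.15 with SciPy 1.17.1, were tested on simulated data. The alternatives are given in the closing section.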

Additional observations from a re-analysis of the deposited data

Results flagged for a closer look

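Hilpda had opposite directions between ENZ and control in different cell classes. Its ratio, ENZ over control, was 1.61 in T cells and 0.487 in cancer cells, 0.635 in macrophages and 0.615 in dendritic cells. Egln3 did the same between T cells, with a ratio of 1.67, and neutrophils, with a ratio of 0.495. Each rests on 1 library per condition, and the difference between classes was not tested.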

How the results depend on the processing

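No paired analysis was possible because there was only 1 library for vehicle and 1 for ENZ. Across 82 combinations of result and alternative, 70 values stayed within the counting interval of the value above or, for counts, within 1.5 times of it, 11 moved past it and 1 changed sign. The log2 ratio of Hilpda in cancer cells, -1.04, was -0.98 when the CPM of single cells were averaged, -1.08 with median-of-ratios scaling and -1.12 in cells without Mki67 and Top2a UMIs. Within tertiles, chosen after seeing the data, it was -0.35, -1.11 and -1.58 by dissociation genes and -0.99, -0.51 and -0.27 by Gm42418. The count of members 1.5-fold lower stayed at 1 and of those higher at 0 in all 12 alternatives. In macrophages the log2 ratio, -0.65, was -0.98 with the stricter marker gate, and in neutrophils, -0.26, it was 0.0064 at a minimum of 2000 UMIs. The causes were not tested. The median of the other members in Hilpda-high over Hilpda-zero control cells, 0.51, was 0.24 in cells without Mki67 and Top2a UMIs, and in ENZ, 0.13, it ranged from 0.14 to 0.65. For these medians the limits were the medians of the members' own interval bounds, 0.33 to 0.69 in control and -0.10 to 0.71 in ENZ, which are wide. Control was above ENZ as given, but below it with thinning to 4000 UMIs (0.60 and 0.65) and in cells without Mki67 and Top2a UMIs (0.24 and 0.50). With 1 mouse per condition, the spread between mice is unknown, and counting intervals are narrower than it may be. Car9 and Adm are limited by depth.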
